A study of Mus musculus with 10 samples.

Results

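The BMP and TGF-beta ligands described here are 9 secreted growth factor genes, Bmp2, Bmp4, Bmp5, Bmp6, Bmp7, Bmp10, Tgfb1, Tgfb2 and Tgfb3. They were taken by name, as every probe set that the platform annotation assigns to exactly 1 of these symbols, which gave 17 of the 45101 probe sets in the table. All 9 genes were measured, and no filter on low signals was applied. Whole hearts were taken from female mouse embryos 13.5 days post coitum (13.5 dpc), and each Affymetrix array measured a pool of 4 to 5 hearts of 1 genotype. The knockout group held 5 pools from embryos with a heart-conditional heterozygous Hccs knockout, and the control group held 5 pools from littermates labelled only as controls. Hccs, a gene of the X chromosome, encodes the enzyme that attaches haem to mitochondrial cytochromes. Through X inactivation, a heterozygous female heart mixes cells that have lost the enzyme with cells that keep it. No source used here names the driver of the heart-conditional deletion. Each array averages several hearts, so p-values measure the spread between pools and not between embryos.

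Ligands of this superfamily are made as proproteins, cut by proprotein convertases and secreted as dimers, which bring together type I and type II receptor kinases. BMP receptors mainly activate Smad1, Smad5 and Smad9, while TGF-beta receptors mainly activate Smad2 and Smad3, and both groups enter the nucleus with Smad4. In the embryonic heart, Bmp10 sustains the growth of trabecular myocardium, Bmp2 and Tgfb2 act in the formation and remodelling of the endocardial cushions, and Bmp4 acts in outflow tract septation.

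As a check of the labels, Hccs had log2 signals of 10.81, 10.73, 10.90, 10.57 and 10.39 in knockout replicates 1 to 5, against 11.11, 11.31, 11.28, 11.20 and 11.25 in control replicates 1 to 5. The groups did not overlap, and Hccs fell by 0.55 on the log2 scale (SE 0.090, limma adjusted p = 0.0225). The tissue label was checked on 8 cardiomyocyte genes, all above every array median, such as Actc1, the cardiac actin, at 16.07 ± 0.05 in knockout and 16.20 ± 0.04 in control hearts (log2, mean ± SD, n = 5 each). Array medians lay between 3.65 and 3.76 on the log2 scale.

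None of the 9 ligand genes passed an adjusted p of 0.05 in the comparison of knockout with control hearts (limma, 18193 genes). Over all genes 2.58% passed, 1.63% as higher and 0.945% as lower in the knockout hearts. Before adjustment, Bmp10 and Bmp4 had a limma p under 0.05, which is 22.2% of the ligands against 20.6% of all genes. The log2 change was positive for 6 ligands and negative for 3, a share of 66.7% positive, against 60.5% of all genes. The median log2 change of the ligands was 0.18, and that of all genes was 0.025. For 0 of the 9 ligands were the groups fully apart, while 5.79% of all genes had groups that did not overlap. At the level of single probe sets 0 of the 17 passed, where 1.14% of 45037 probe sets did, and the groups overlapped on all 17, where they were fully apart on 5.26% of all probe sets.

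**Figure D1:**
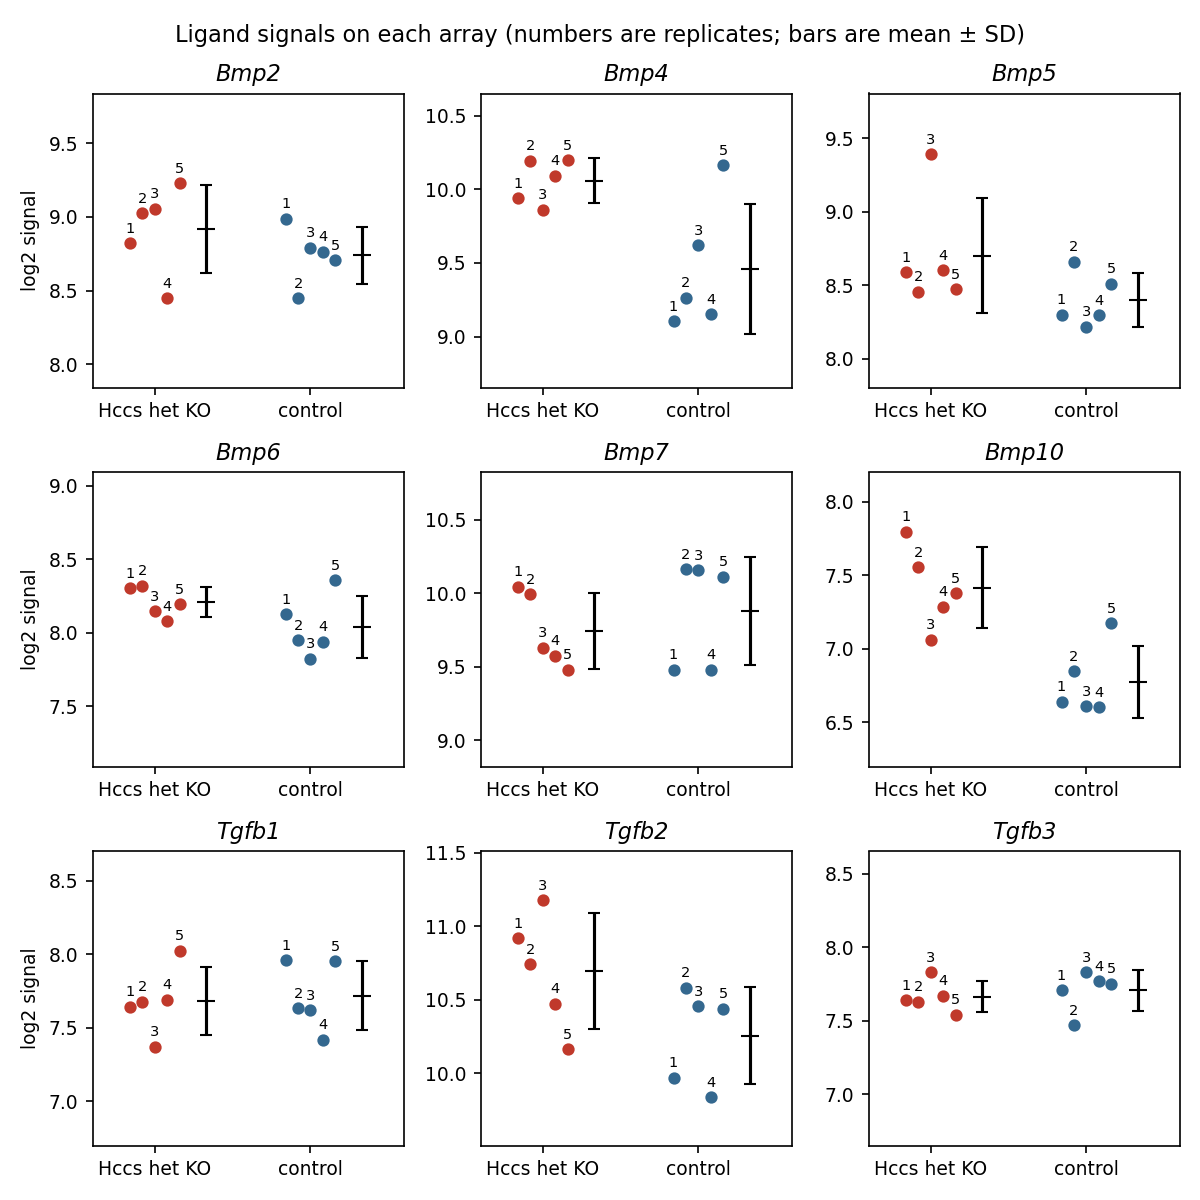
Log2 signal of each ligand gene on each array, knockout pools left and control pools right, with the replicate number over each point and mean ± SD (n = 5 each) as bars; every panel spans the same height of 2 log2 units. For Bmp10 and Bmp4, control replicate 5 is the control pool that reaches into the knockout range.

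Bmp10, the growth factor of trabecular cardiomyocytes, had log2 signals of 7.79, 7.55, 7.06, 7.29 and 7.38 in knockout replicates 1 to 5. The control replicates 1 to 5 had 6.64, 6.85, 6.61, 6.60 and 7.17. In 4 of 5 knockout pools Bmp10 was above every control pool, and the overlap came from knockout replicate 3, at 7.06, and control replicate 5, at 7.17. The means were 7.41 ± 0.28 in knockout and 6.77 ± 0.25 in control hearts (SD, n = 5 each). The log2 change was 0.64 (SE 0.152, 95% confidence interval 0.30 to 0.98), a ratio of 1.56. With a limma unadjusted p of 0.00187 and an adjusted p of 0.0583, Bmp10 missed the threshold. Without control replicate 5 its log2 change was 0.74 and its limma adjusted p was 0.0377, and with each other array left out the adjusted p stayed above 0.05. Bmp10 also passed with genes limited to mean levels above the lower quartile (limma adjusted p = 0.0421) or the median (0.0242), with a robust trend in eBayes (0.0456) and with array weights (0.0309). Under the other 16 of 21 alternatives Bmp10 missed the threshold, with limma adjusted p of 0.0815 after quantile normalization and 0.0664 after median centring.

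Bmp4, which is made in outflow tract and epicardial tissue among others, had log2 signals of 9.94, 10.20, 9.86, 10.09 and 10.20 in knockout replicates 1 to 5. In control replicates 1 to 5 it had 9.10, 9.26, 9.62, 9.15 and 10.16. The knockout pools lay close together, 4 of 5 controls lay below all of them, and control replicate 5 lay among them. The means were 10.06 ± 0.15 in knockout and 9.46 ± 0.44 in control hearts (SD, n = 5 each). The log2 change of 0.60 (SE 0.191, 95% confidence interval 0.17 to 1.02) did not pass, with a limma adjusted p of 0.129. Without control replicate 5 the log2 change was 0.77 and the limma adjusted p was 0.0280, and with array weights they were 0.71 and 0.0494. Under the other 19 of 21 alternatives Bmp4 missed the threshold.

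Control replicate 5, without which Bmp10 and Bmp4 both passed, also had the strongest 18S ribosomal RNA control signal, 11.45 on the log2 scale. In control replicates 1 to 4 that signal was 9.88, 10.58, 8.06 and 10.26. The 18S signal is a sign of residual ribosomal RNA, and it averaged 8.17 ± 0.35 in knockout and 10.05 ± 1.25 in control hearts (SD, n = 5 each, exact two-sided permutation p = 0.0238, adjusted p = 0.0714 over 9 array measures). With that signal as a covariate the log2 change of Bmp10 was 0.91 (SE 0.211, limma adjusted p = 0.0672) and that of Bmp4 was 0.70 (SE 0.301, limma adjusted p = 0.271). Both SEs were larger than without the covariate. The 18S signal and the genotype moved together on these arrays, and the part of residual ribosomal RNA in the values of Bmp10 and Bmp4 was not tested.

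Tgfb2, the TGF-beta isoform of the cushions, was measured by 4 probe sets. The one that stood for the gene, 1450923_at, had log2 signals of 10.92, 10.74, 11.18, 10.47 and 10.16 in knockout replicates 1 to 5, against 9.97, 10.58, 10.45, 9.84 and 10.44 in control replicates 1 to 5. Knockout replicates 1, 2 and 3 were above every control, while knockout replicates 4 and 5 lay inside the control range. The log2 change was 0.44 (SE 0.209, 95% confidence interval -0.03 to 0.91, limma adjusted p = 0.269). Probe sets 1450922_a_at and 1438303_at had log2 changes of 0.37 and 0.32, and 1423250_a_at had 0.04. Their limma adjusted p, over all probe sets, were 0.137, 0.263 and 0.920. The 4 probe sets did not follow each other closely from array to array. After removal of the genotype means, the correlation over the 10 arrays was 0.74 between 1450923_at and 1423250_a_at, and it lay between -0.34 and 0.51 for the other pairs. The probe sets share their arrays, so these values are descriptions.

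Because Bmp10, Bmp4 and Tgfb2 had the largest log2 changes among the ligands, the 250 bases before their annotated starts are shown, from the RefSeq promoter table of build GRCm38.p6. They run 5′ to 3′ on the strand of the gene and lie at chr6:87428744-87428993 (plus strand) for Bmp10, chr14:46390670-46390919 (minus strand) for Bmp4 and chr1:186705990-186706239 (minus strand) for Tgfb2. Capitals mark matches, on either strand, to AGATAA (the GATA motif), CAGAC or GGCGCC (Smad motifs), TNAAGTG (the NKX motif), TGATGNAA (the ATF4 motif), TATAAA (the TATA box) or the CArG box.
Bmp10: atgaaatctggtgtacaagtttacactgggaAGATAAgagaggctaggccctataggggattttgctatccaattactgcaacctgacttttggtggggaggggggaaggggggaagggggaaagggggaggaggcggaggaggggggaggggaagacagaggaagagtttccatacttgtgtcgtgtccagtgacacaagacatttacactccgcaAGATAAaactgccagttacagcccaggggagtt
Bmp4: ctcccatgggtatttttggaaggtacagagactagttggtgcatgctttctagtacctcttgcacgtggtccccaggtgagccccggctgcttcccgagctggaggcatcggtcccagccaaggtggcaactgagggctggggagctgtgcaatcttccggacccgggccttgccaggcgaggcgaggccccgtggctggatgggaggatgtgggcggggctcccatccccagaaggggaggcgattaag
Tgfb2: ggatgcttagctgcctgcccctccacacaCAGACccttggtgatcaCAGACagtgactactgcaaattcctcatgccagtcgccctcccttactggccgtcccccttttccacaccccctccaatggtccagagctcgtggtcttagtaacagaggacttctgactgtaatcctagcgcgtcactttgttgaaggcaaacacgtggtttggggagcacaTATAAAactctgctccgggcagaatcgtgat

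The Bmp10 window held AGATAA 2 times, the nearer match 28 bases before the start, and 9.99% of the 32851 windows of this length in the table hold that motif. The Tgfb2 window held CAGAC 2 times and TATAAA once, 26 bases before the start, where 42.2% and 12.4% of all windows hold these letters. The Bmp4 window matched none of the 7 motifs. TNAAGTG and GGCGCC, each found in a share of 10.1% and 9.59% of all windows, and the CArG box, found in 1.47%, had no match in these windows. TGATGNAA, found in 3.45% of all windows, had none either. No match overlapped another. Windows were found for 6 of the 9 ligands, and of the other windows, those of Bmp5 and Bmp6 each held CAGAC once, that of Bmp5 held a TGATGNAA match, and that of Tgfb1 held none. A match describes letters only.

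Bmp2, the myocardial signal of the atrioventricular canal that starts cushion formation, had log2 signals of 8.82, 9.03, 9.06, 8.45 and 9.23 in knockout replicates 1 to 5, against 8.99, 8.45, 8.79, 8.76 and 8.71 in control replicates 1 to 5. Knockout replicates 2, 3 and 5 were above every control, and the lowest knockout and control pools were level. The log2 change was 0.18 (95% confidence interval -0.15 to 0.50, limma adjusted p = 0.516), and 0.097 to 0.29 with 1 array left out. Bmp6, a ligand of cushion and vascular tissue that in the liver controls iron balance, lay between 8.08 and 8.32 in knockout and between 7.82 and 8.36 in control pools. Its log2 change was 0.17 (95% confidence interval -0.05 to 0.39, limma adjusted p = 0.348).

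Bmp5 and Bmp7, which act redundantly in early heart growth and cushion formation, were each measured by 3 probe sets. The Bmp5 probe set that stood for the gene had log2 signals of 8.59, 8.46, 9.39, 8.60 and 8.47 in knockout replicates 1 to 5, against 8.30, 8.66, 8.22, 8.30 and 8.51 in control replicates 1 to 5. Knockout replicate 3 was the highest of the 10 pools on all 3 Bmp5 probe sets, with 8.77 on 1455851_at and 6.86 on 1421282_at. The log2 change of Bmp5 was 0.31 (95% confidence interval -0.09 to 0.70, limma adjusted p = 0.354), and it was 0.13 without knockout replicate 3 (limma adjusted p = 0.475). Bmp7 had log2 signals of 10.04, 9.99, 9.63, 9.58 and 9.48 in knockout replicates 1 to 5, against 9.48, 10.16, 10.16, 9.48 and 10.11 in control replicates 1 to 5. All knockout pools lay within the range of the control pools. The log2 change of Bmp7 was -0.13 (95% confidence interval -0.54 to 0.27, limma adjusted p = 0.698), and -0.23 to -0.063 with 1 array left out, while its other probe sets had -0.32 and 0.01. Within Bmp5 and within Bmp7 the probe sets moved together from array to array, with correlations of deviations from the genotype means between 0.70 and 0.94 over the 10 arrays.

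Tgfb1, an isoform made by endothelial and blood cells among others, lay between 7.37 and 8.02 in knockout and between 7.42 and 7.96 in control pools. Its log2 change was -0.035 (95% confidence interval -0.34 to 0.27, limma adjusted p = 0.901). The other Tgfb1 probe set, 1445360_at, averaged 2.41 in knockout and 2.38 in control hearts, below all array medians. Tgfb3, an isoform of cushion mesenchyme, had the narrowest interval of the 9 genes. It lay between 7.54 and 7.83 in knockout and between 7.47 and 7.83 in control pools, with a log2 change of -0.044 (95% confidence interval -0.21 to 0.12, limma adjusted p = 0.765). The intervals of these 2 genes leave room for changes of that size in either direction, and the missed threshold does not show equal levels.

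**Figure D2:**
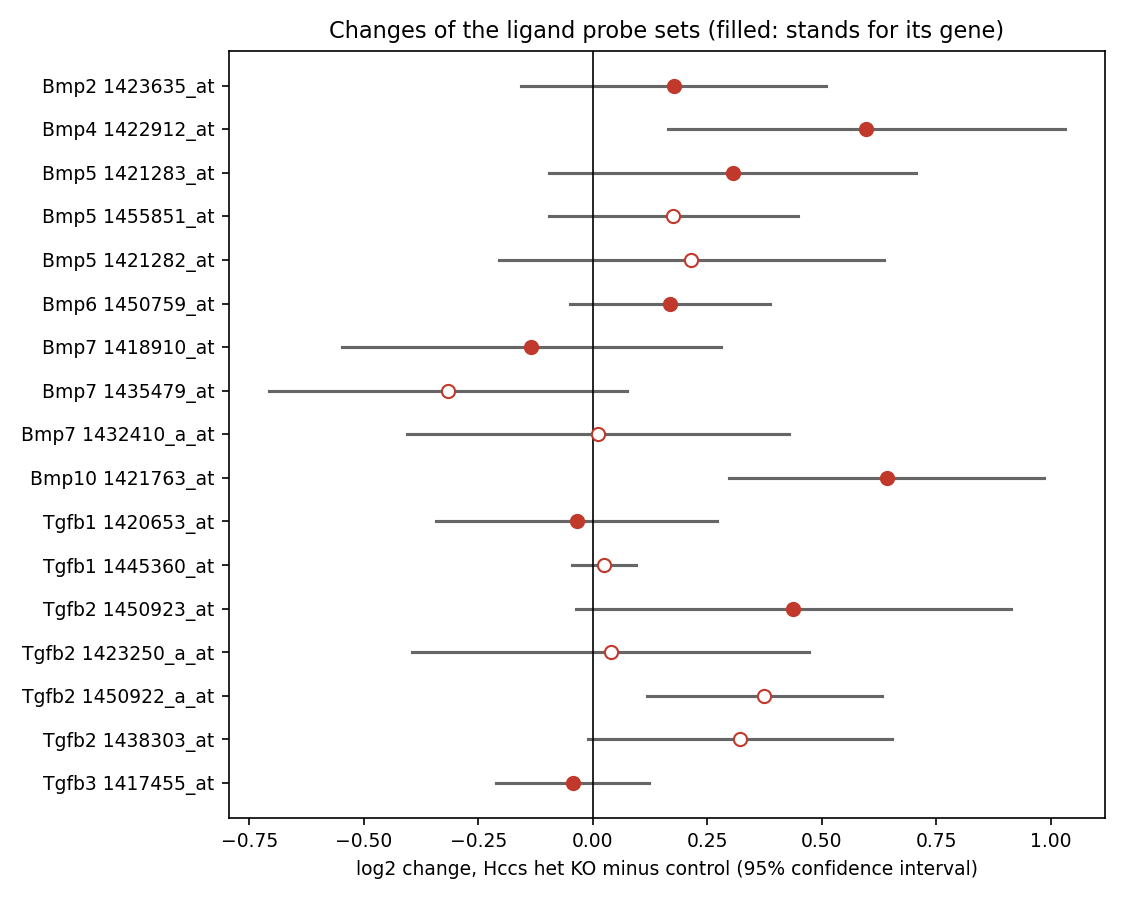
Log2 change, knockout minus control, of each of the 17 ligand probe sets with its 95% confidence interval (limma, n = 5 arrays a group); filled points stand for their gene. The intervals of Bmp10, Bmp4 and 1450922_a_at of Tgfb2 lie above 0, those of the other probe sets include 0, and none passed after adjustment over all probe sets.

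From array to array some pairs of ligands varied alike and others did not. After removal of the genotype means, Bmp7 and Tgfb2 had a correlation of 0.73 over the 10 arrays, Bmp6 and Bmp10 of 0.73, and Bmp5 and Tgfb2 of 0.66. The lowest of the 36 pairs, Bmp5 and Tgfb1, had -0.45. Control replicate 5 had the highest deviation of both Bmp6 (0.32) and Bmp10 (0.40). Knockout replicate 3 had that of both Bmp5 (0.69) and Tgfb2 (0.48), and the ligand pairs were not tested without these arrays. The genes most like each ligand were then sought among 10907 other genes above the 40th percentile of mean level, by Pearson correlation of the same deviations. Pgk1 and Tmem160 were most like Bmp10 (0.97 and 0.96), and without the 2 arrays farthest from the median of Bmp10 the values were 0.93 and 0.91. Has2 and Ncaph2 were most like Bmp2 (0.92 and 0.90, or 0.85 and 0.61 without 2 arrays). B4galt5 and Amdhd2 were most like Bmp4, with 0.96 and 0.95. Kpna2 and Trmt11 were most like Bmp5 (0.94 and 0.93), values that were 0.64 and 0.49 without 2 arrays. Dohh and Psmb5 led for Bmp6, Pcyox1 and Cend1 for Bmp7, Pfkl and Dusp26 for Tgfb1, Rnf214 and Depdc1b for Tgfb2, and Eid2 and Chic2 for Tgfb3, with correlations from 0.88 to 0.96. These are the highest of 10907 correlations for each ligand, over 10 arrays that share their processing, and they are given as a description.

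Among the receptors no gene passed. On the probe sets that stood for the genes, all 4 TGF-beta receptor genes had a negative log2 change, with a median of -0.19. So did 5 of the 7 BMP receptor genes, with a median of -0.26, where 39.5% of all genes were negative. Bmpr1a, the type I receptor for several BMPs, averaged 10.99 ± 0.14 in knockout and 11.26 ± 0.05 in control hearts (log2, mean ± SD, n = 5 each). Its groups did not overlap, yet its log2 change of -0.27 had a limma adjusted p of 0.0556. The groups of Tgfbr2, the type II receptor, and of the co-receptor Tgfbr3 did not overlap either, with log2 changes of -0.26 and -0.39 and limma adjusted p of 0.0637 and 0.0686. Groups were apart for 1 of the 7 BMP receptor genes and 2 of the 4 TGF-beta receptor genes, against 5.79% of all genes. Bmpr1a, Tgfbr2 and Tgfbr3 were chosen after their values were seen. Other probe sets pointed the other way for 4 of 6 of Bmpr1a and 2 of 3 of Tgfbr2, and the other Tgfbr3 probe set had -0.017. The brightest gene was Bmpr2 among the BMP receptors, at -0.36, and Tgfbr1 among the TGF-beta receptors, at -0.11 (log2 changes). Both had 1 of 3 probe sets in that direction, and the highest of the others had 0.29 for Bmpr2 and 0.50 for Tgfbr1. Of the receptor genes with a negative change, only Tgfbr3 had no probe set in the other direction.

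Of 8 Smads, Smad5 fell and 7 did not pass, where 0.945% of all genes fell. Before adjustment 2 had a limma p under 0.05 (25%, against 20.6% of all genes). Groups were apart for 2 of the 8 (25%, against 5.79% of all genes). Smad5, which carries BMP signals, had log2 signals of 8.83, 8.74, 8.91, 8.79 and 8.93 in knockout replicates 1 to 5, against 9.17, 9.06, 9.23, 9.11 and 9.09 in control replicates 1 to 5. The groups were apart, and Smad5 fell by 0.29 on the log2 scale (SE 0.048, limma adjusted p = 0.0225). Another of its 3 probe sets had a log2 change of 0.34, and with the mean of the 3 the change was -0.033. The call was also lost in 4 of 10 fits with 1 array left out, those without control replicate 1 or 3 or knockout replicate 2 or 4 (limma adjusted p between 0.0511 and 0.0584). Smad4, the shared partner, had a log2 change of -0.056 (SE 0.0958).

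Of 15 genes of ligand latency and activation, Pcsk5 rose and 14 did not pass, where 1.63% of all genes rose. Before adjustment 2 had a limma p under 0.05 (13.3%, against 20.6% of all genes). Pcsk5 is a proprotein convertase, of the enzyme family that cuts such precursors. It had log2 signals of 9.29, 9.19, 9.31, 9.04 and 8.91 in knockout replicates 1 to 5, against 8.64, 8.52, 8.69, 8.55 and 8.52 in control replicates 1 to 5. No control pool reached the lowest knockout pool. The log2 change of Pcsk5 was 0.56 (SE 0.0795, limma adjusted p = 0.0156), all 5 of its probe sets had a positive change, from 0.007 to 0.56, and the call was kept with each array left out in turn. It was lost with the most variable probe set in place of the brightest (limma adjusted p = 0.128), with the 18S signal as a covariate (0.0751) and without both arrays numbered 3 (0.0683). With the mean of its probe sets the change was 0.22 and the call was kept (limma adjusted p = 0.0316). The brightest of those 14, the TGF-beta-binding proteoglycan Dcn, differed by -0.050 on the log2 scale (SE 0.176) without passing. No gene among 14 secreted antagonists passed in limma. Before adjustment 3 had a p under 0.05 (21.4%, against 20.6% of all genes). Those 3, chosen after their values were seen, were Sost (0.78), Fst (0.58) and Chrdl1 (0.51, all log2 changes), and Fstl1, the brightest, had -0.036. The other Sost probe set had a log2 change of -0.0078. For 6 of the 14 both group means lay below all array medians.

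Among 14 BMP target genes none passed in limma, 11 were positive (78.6%, against 60.5% of all genes), and the median log2 change was 0.24. Before adjustment 5 had a limma p under 0.05 (35.7%, against 20.6% of all genes). For 1 of those 5, Msx2, named after its value was seen, both group means lay below all array medians. Id2, an inhibitor of basic helix-loop-helix factors and the brightest member, averaged 13.59 ± 0.21 in knockout and 13.14 ± 0.12 in control hearts (log2, mean ± SD, n = 5 each). Its groups did not overlap, and the log2 change of Id2 was 0.45 (SE 0.101), with a limma adjusted p of 0.0502. Over 21 alternatives that adjusted p lay between 0.0189, without knockout replicate 1, and 0.806, with the most variable probe set, where the change was 0.12. It passed in 5 of them. The mean of its 3 probe sets gave 0.26. The other 3 members of its family, Id1, Id3 and Id4, chosen after their values were seen, had log2 changes of 0.16, 0.28 and 0.37. Their limma adjusted p were 0.407, 0.235 and 0.225, and the lowest of 3 Id4 probe sets had a log2 change of 0.013. Among 15 TGF-beta target genes 1 rose, where 1.63% of all genes did, and 14 missed the threshold. Tgif1, a repressor of Smad2 and Smad3 transcription, rose by 0.57 on the log2 scale (SE 0.122, limma adjusted p = 0.0450). That call was lost in 9 of 10 fits with 1 array left out, all but the one without knockout replicate 1, with limma adjusted p between 0.0549 and 0.0902. In all it was lost under 15 of 21 alternatives, and the log2 change of Tgif1 had a limma adjusted p of 0.0588 with quantile normalization and 0.0570 with median centring. Acta2, the brightest of this list, had a log2 change of -0.13, and the list median was -0.099.

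Of 16 genes tied to Bmp10 and trabecular growth, Nkx2-5 and Erbb2 fell and 14 did not pass, where 0.945% of all genes fell. Before adjustment 3 had a limma p under 0.05 (18.8%, against 20.6% of all genes). Nkx2-5, a cardiac homeobox factor whose level depends on Bmp10 in mouse embryos, had log2 signals of 10.68, 10.50, 10.20, 10.28 and 10.31 in knockout replicates 1 to 5, against 11.02, 11.23, 11.15, 11.15 and 11.31 in control replicates 1 to 5. The groups were well apart, and the log2 change of Nkx2-5 was -0.78, with an SE of 0.0924 and a limma adjusted p of 0.0108. The call was lost with the 18S signal as a covariate, where that adjusted p was 0.0534, and it was 0.0523 without both arrays numbered 3. The driver of the heart-conditional deletion is not named, and its part in the fall of Nkx2-5 was not tested. Nor was the part of Bmp10 tested. Erbb2, a receptor of the neuregulin signal for trabeculation, fell by 0.44 on the log2 scale, with an SE of 0.0778 and a limma adjusted p of 0.0250. The Erbb2 call was lost without control replicate 1, 2 or 3 or knockout replicate 3 or 4 (limma adjusted p between 0.0589 and 0.0630). Cdkn1c, the cell cycle inhibitor that Bmp10 holds down in mouse hearts, had a log2 change of -0.16 (SE 0.0731) and Myocd, a coactivator that promotes Bmp10 expression in mouse hearts, of -0.63 (SE 0.154). Both missed the threshold, with limma adjusted p of 0.261 and 0.0655, and both were chosen after their values were seen. Nppa, the brightest member, differed by 0.011 on the log2 scale (SE 0.0817). No gene of the 12 cushion genes passed in limma, while 9 were positive (75%, against 60.5% of all genes) and 3 had an unadjusted p under 0.05 (25%, against 20.6%), with a median of 0.42. Vcan, their brightest, had -0.48 (SE 0.172), with 3 of its 8 probe sets negative. None of 18 other ligands of the superfamily passed either, and 2 had a limma unadjusted p under 0.05 (11.1%, against 20.6% of all genes). For 13 of the 18 both group means lay below all array medians. Gdf10, the brightest of the 18, had a log2 change of -0.29 (SE 0.356).

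**Figure D3:**
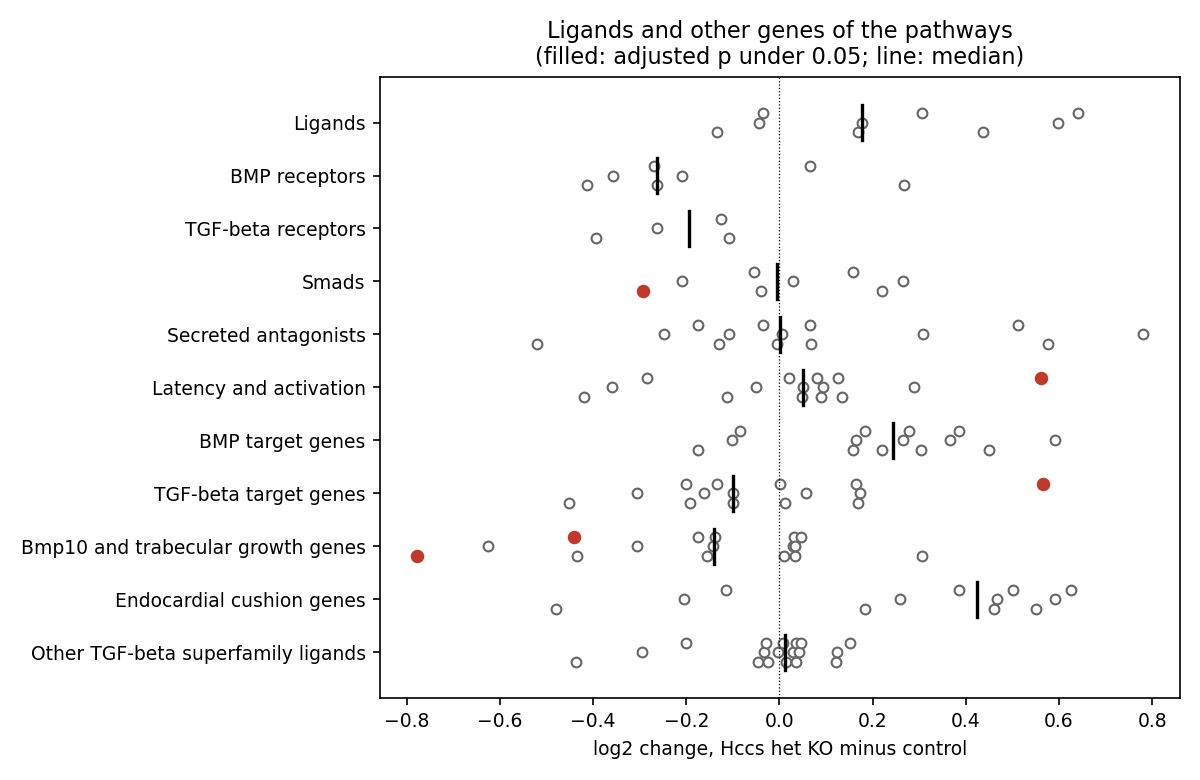
Log2 change, knockout minus control, of the 9 ligands and of the measured genes of 10 pathway lists (1 point a gene, a gene may stand in 2 lists), with filled points for an adjusted p under 0.05 (limma, 18193 genes) and a vertical line at each median. Smad5, Nkx2-5 and Erbb2 are filled on the left and Pcsk5 and Tgif1 on the right, while no ligand is filled.

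Over the 10 lists together 5 of 118 measured genes passed, or 4.24%, against 2.58% of all genes, and 23.7% had an unadjusted p under 0.05, against 20.6%. The lists were written with results of these arrays known, and Smad6, Smad7, Tbx2, Msx1 and Msx2 stand in 2 lists each.

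Marker levels of the cell types in the heart were set beside these values. On the probe sets that stood for the genes, all 8 cardiomyocyte markers had a negative log2 change. Of the 8, 4 fell, where 0.945% of all genes did. They were Tnnc1, Myh7, Myl2 and Tnni1, named after their values were seen. Another probe set had a log2 change of 0.57 for Myh6, also named after its value was seen, and 0.019 for Tnnt2. Of the brightest 2, Actc1 and Tnnt2, the cardiac troponin T gene, neither passed. Tnnt2 averaged 15.82 ± 0.09 in knockout and 15.95 ± 0.06 in control hearts (log2, SD, n = 5 each). The mean log2 level of all 8 cardiomyocyte markers lay between 15.10 and 15.25 in knockout and between 15.37 and 15.46 in control pools. That difference had an exact two-sided permutation p of 0.00794, the smallest that 5 against 5 arrays allow (adjusted p = 0.0357 over 9 array measures, n = 5 each). Of 8 epicardial markers 1 rose, where 1.63% of all genes did. It was Tcf21, which rose by 0.61 on the log2 scale (limma adjusted p = 0.0376), while its other probe set had -0.059. Upk3b had a log2 change of 0.069. The mean level of the 8 lay between 9.63 and 9.95 in knockout and between 9.42 and 9.83 in control pools (exact permutation p = 0.183). The mean of 8 cushion and fibroblast markers, none of which passed (log2 changes of 0.012 for Col3a1 and -0.10 for Postn), lay between 11.16 and 11.31 in knockout and between 10.96 and 11.35 in control pools (exact permutation p = 0.238). The mean of 8 endothelial and endocardial markers, with 4 of 8 negative and none past the threshold, lay between 9.79 and 9.91 in knockout and between 9.86 and 10.06 in control pools (exact permutation p = 0.0397, adjusted p = 0.0714). Its brightest 2, Emcn and Tek, had log2 changes of 0.13 and 0.023. The 4 negative members, named after their values were seen, were Kdr (-0.46), Tie1 (-0.31), Cdh5 (-0.29) and Npr3 (-0.19). Plvap (0.16) and Pecam1 (0.030) were positive, and were also named after their values were seen. Another probe set had a log2 change of 0.035 for Cdh5 and 0.11 for Npr3. Before adjustment 5 of the 8 had a limma p under 0.05 (62.5%, against 20.6% of all genes). The erythroid mean also had an exact permutation p under 0.05 (0.0317, adjusted p = 0.0714, n = 5 each), while smooth muscle and macrophage means had 0.659 and 0.603. The brightest 2 of these lists were Hbb-y (-0.088) and Hba-x (-0.29), Acta2 (-0.13) and Tagln (-0.20), and Csf1r (-0.049) and Mrc1 (-0.027), with log2 changes that did not pass. Among the smooth muscle markers, Pdgfrb (0.45) and Myocd (-0.63) had the smallest p and did not pass either, and Pdgfrb was named after its value was seen. In whole hearts fewer cells of a type and less RNA per cell cannot be told apart. The part of tissue makeup in the ligand values was not tested.

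**Figure D4:**
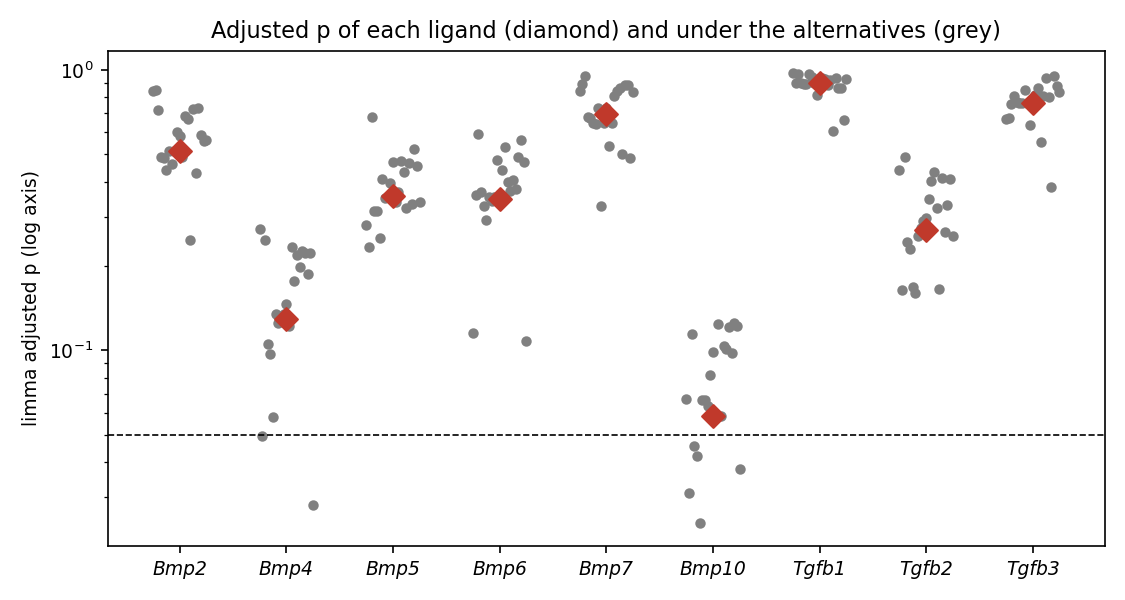
Limma adjusted p of each ligand gene on a log axis, as reported (diamonds) and under 21 alternatives of processing, among them each array left out in turn (grey points); the dashed line marks 0.05. Bmp10 lies below the line under 5 alternatives and Bmp4 under 2, and the other 7 ligands lie above it under all 21.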

How the data were processed

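Total RNA (5 ug a pool) was made into biotinylated cRNA and hybridised, per the labels' protocols. The authors deposited 1 log2 signal for each probe set and array. RMA and Partek are named in the submitters' processing notes, with no versions or options. That the scale is log2 follows from the range of the signals. RMA brings arrays to a common distribution, so changes of total RNA cannot be seen, and low signals may be compressed. Precision is set by the number of arrays, 5 a group. Labels give no scan batch.

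Of 45101 probe sets, 64 array controls were left out. The brightest of the 34945 probe sets with 1 symbol stood for each of 18193 genes. Changes are knockout minus control, from limma 3.58.1 in R 4.3.3 (lmFit, eBayes, genotype only, two-sided), with Benjamini-Hochberg adjustment over all genes or, for single probe sets, over 45037 probe sets. The fit was tested on simulated data. Alternatives covered normalization, filters on level, choice of probe set, eBayes options, array weights, an 18S covariate, a replicate block and arrays left out. Exact permutation tests ran over all 252 splits. The members, lists and tests were chosen with earlier results of these data known. Named are the ligands, Hccs, up to 4 passing members and the brightest other member of each list, the brightest 2 of each marker list, and 2 look-alikes for each ligand. Names outside this rule are marked. Same-numbered replicates did not deviate together (correlations from -0.091 to 0.077). Some list genes were not analysed here.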

Additional observations from a re-analysis of the deposited data

Results flagged for a closer look

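Of 34 groups of 5 arrays, 1 held a sample far from the others, where chance gives about 1 in 20. On the Bmp5 probe set that stood for the gene, knockout replicate 3 had a log2 signal of 9.39, while the other 4 knockout pools lay between 8.46 and 8.60. The same pool was the highest knockout pool on both other Bmp5 probe sets and on 1450923_at of Tgfb2.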

How the results depend on the processing

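The count of ligand genes past the threshold was 0. It was 1 with genes above the median or the lower quartile of mean level and with eBayes with trend and robust, and 2 with array weights. With 1 array left out it was 0 to 2, and it was 2 without control replicate 5. The count of ligand probe sets was 0, but 1 above the median level and with array weights, and 0 to 2 with 1 array left out. Of the pathway genes 5 passed, against 1 with the replicate block, 12 above the median level, 3 with the most variable probe set, 10 with array weights, 0 without the arrays numbered 3 and 2 to 12 with 1 array left out (12 without knockout replicate 1). Over all genes the 469 calls became 36 with the replicate block, 759 above the median level, 945 with array weights, 296 with the 18S signal as a covariate, 30 without the arrays numbered 3 and 105 to 1042 with 1 array left out (1042 without knockout replicate 1). The Hccs check, a log2 change of -0.55, missed the threshold with the replicate block (-0.55), the 18S covariate (-0.50) and the arrays numbered 3 left out (-0.59), and ran from -0.60 to -0.48 with 1 array left out, missing it without control replicate 2 or 3 or knockout replicate 2 or 4. The replicate numbers are not shown to pair the samples. With that block the log2 change of Nkx2-5, the log2 change of Erbb2, the log2 change of Smad5 and the log2 change of Tgif1 had adjusted p of 0.0571, 0.0646, 0.0706 and 0.126.

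Direction turned for Tgfb1, Tgfbr1, Acta2, Dcn, Gdf10, Smad4 and Nppa, none of which had passed. The log2 change of Tgfb1 was 0.018 with the 18S covariate and 0.018 without the arrays numbered 3, and -0.12 to 0.042 with 1 array left out. With other choices of probe set, the log2 change of Tgfbr1 was 0.24 and 0.50, and the log2 change of Acta2 was 0.095 and 0.47, for the mean and the most variable one. Likewise the log2 change of Dcn was 0.014 with the mean and 0.22 with the 18S covariate, and the log2 change of Gdf10 was 0.037 with that covariate. In turn the log2 change of Smad4 was 0.13 with the most variable probe set and 0.003 without the arrays numbered 3. Last, the log2 change of Nppa was -0.0027 with array weights. With 1 array left out Dcn ran from -0.17 to 0.048, Smad4 from -0.11 to 0.017 and Nppa from -0.039 to 0.071. The causes were not tested. The other 8 ligands kept their direction under all 21 alternatives.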
